A study of Sus scrofa with 2 samples.

Results

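The scaffold of the muscle fibre, meaning the proteins of the Z-disc, the titin and nebulin filaments, the M-band and the costamere, was examined in the biceps femoris transcriptome of newborn cloned piglets. Members were chosen by name: an entry was taken when its symbol was XIRP1, FLNC, CSRP3 or SYNPO2, or when its protein annotation held 1 of 22 family terms such as actinin, filamin, nebulin, titin, myozenin, PDZ and LIM, myomesin, tropomodulin or vinculin. The rule found 59 of the 12535 transcripts that had reads in either library. These stood for fewer genes, since several genes were split over more than 1 entry. The terms desmin and myopalladin matched no entry in the tables used here.

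All piglets had been cloned by somatic cell nuclear transfer, and muscle was taken on Day 1 after birth. The abnormal cloned group, labelled as developmental failure, was 1 library of RNA mixed from 3 piglets. The normal cloned group was 1 library mixed from 4 piglets by the methods text and 3 by the sample labels. All 3 abnormal piglets and 2 of the normal piglets came from embryonic fibroblasts of 1 male, and the other 2 normal piglets came from ear fibroblasts of another male, so nuclear donor and phenotype were partly confounded. The unique reads came to 6.38 M for the abnormal cloned group and 6.52 M for the normal one.

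The Z-disc is the boundary between neighbouring sarcomeres, where alpha-actinin cross-links the ends of actin filaments and anchors titin, the giant elastic protein that runs on to the M-band in the middle of the sarcomere. Around this lattice sit the PDZ and LIM adaptors, which are thought to carry mechanical signals, and filamin C with the Xin repeat proteins, which join the Z-disc to the membrane at the costamere and gather at sites of myofibril strain and repair. Nebulin runs along the thin filament, whose free end is held by tropomodulins and leiomodins.

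Levels are given as unique reads and as RPKM (reads per kb of transcript length, scaled to the library total), and differences as log2 ratios of those RPKM, the abnormal library over the normal one. Where 2 values stand side by side, that of the abnormal library comes first. The square brackets hold 95% Wilson intervals, which cover counting error only. A gene was called up- or down-regulated at a false discovery rate (FDR) of at most 0.001 in the two-sided Audic-Claverie test, adjusted over all 12535 transcripts, when its log2 ratio was also 1 or more in size. With 1 library per group there was no replicate check, so each test compares these libraries and not the conditions. In bulk muscle RNA, fewer cells of a type and less RNA per cell cannot be told apart.

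Of the 59 scaffold entries, 19 (32.2%) had higher levels in the abnormal library by these thresholds and 1 (1.69%) had a lower level, beside 12.0% and 1.45% of all transcripts. The scaffold took 6.56% of the abnormal reads and 4.15% of the normal reads. Without the long titin entry, which alone took 1.88% and 1.97% of the reads, these shares were 4.69% and 2.18%. The median log2 ratio of the members was 0.64, beside 0.35 over all transcripts.

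The whole table was shifted toward the abnormal library: over the 7493 transcripts counted at least 10 times in each library the median log2 ratio was 0.36. Values "relative to the median" below are log2 ratios minus this shift. On that scale 17 members were up-regulated and 2 down-regulated, beside 6.48% and 3.97% of all transcripts, and the calls of ACTN2 and MYOT were lost. Genes with more reads are easier to call, and among transcripts with at least 1000 reads in either library, 14 of 26 members (53.8%) were up-regulated, beside 112 of 562 transcripts (19.9%). When edgeR's exact test was given an assumed biological variation of 0.2, 10 members stayed up-regulated (XIRP1, FLNC, both XIRP2 entries, both CSRP3 entries, FHL1, SYNPO2, PDLIM3 and the first NRAP entry) and 0 were down-regulated, beside 1.94% and 0.16% of all transcripts. At an assumed variation of 0.4 no member was called in either direction, beside 0.016% and 0.00798% of all transcripts.

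The 4 role groups are given beside the 12.0% of all transcripts that were up-regulated and the 1.45% that were down-regulated. Up-regulated were 6 of 12 nebulin and thin filament end entries, with a median log2 ratio of 1.13, and 4 of 14 filamin, Xin and costamere entries, with a median of 0.99. In the Z-disc core and PDZ/LIM group, 9 of 24 entries were up-regulated and the median was 0.44. Of the 9 entries for titin, the M-band and the thick filament, none was up-regulated, 1 was down-regulated and the median was 0.05. Relative to the median, with 6.48% of all transcripts up-regulated, these 4 counts were 6, 4, 7 and 0. After the correction for transcript length described below, with 7.39% of all transcripts up-regulated, they were 3, 4, 7 and 0. Differences between the groups were not tested.

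**Figure D1:**
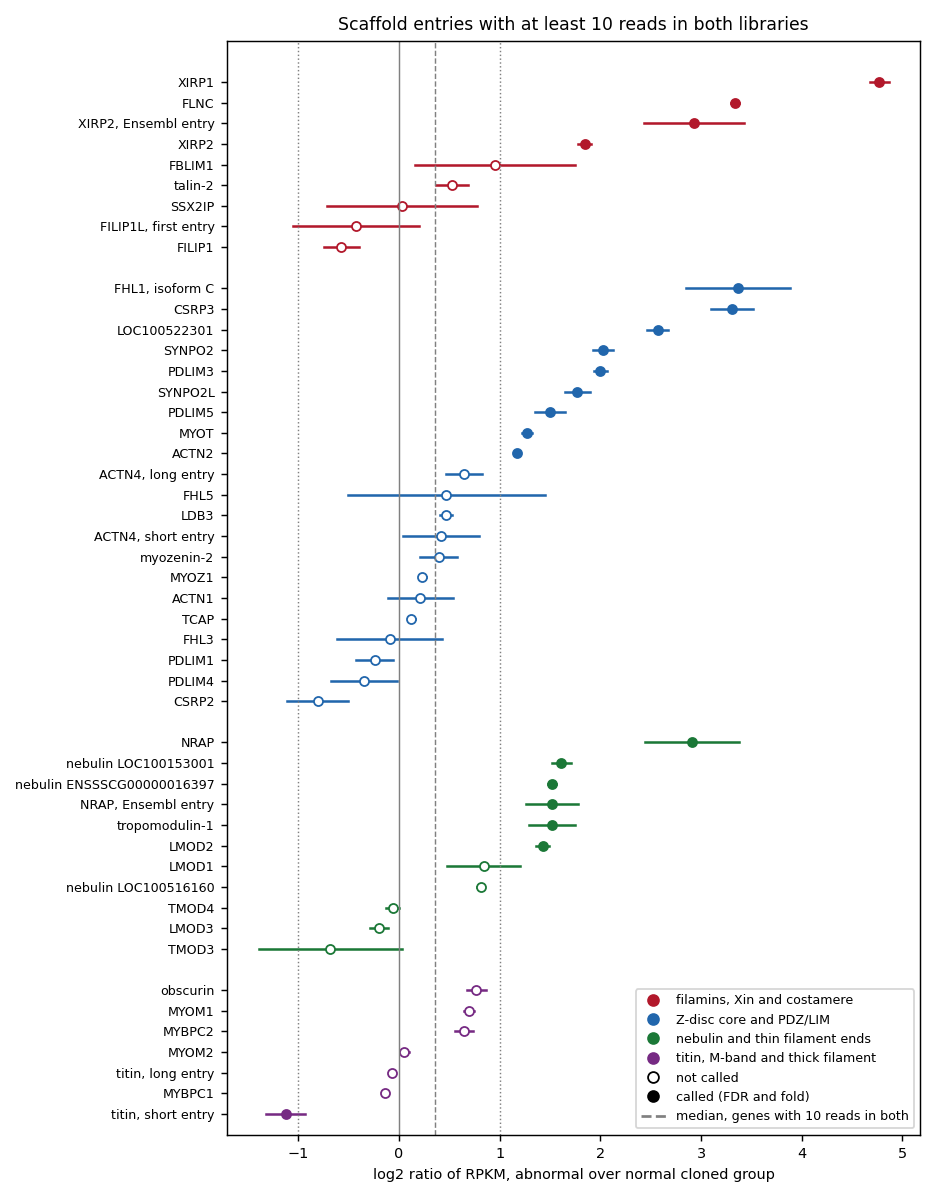
Log2 ratio of RPKM (x axis, abnormal over normal) of the scaffold entries reported here with at least 10 reads in both libraries, ordered within 4 role groups, with 95% Wilson intervals as bars and filled points for called entries. The dashed line marks 0.36, the median of all transcripts with at least 10 reads in both libraries, and the dotted lines mark log2 ratios of 1 and -1. XIRP1 lies farthest to the right at 4.77, and the titin group holds no filled point above 1.

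XIRP1 had the largest log2 ratio of the members with at least 10 reads in both libraries. This gene (Xin actin-binding repeat-containing protein 1, chromosome 13, 19793817 to 19799336 in Sscrofa9, the build of all coordinates here) encodes a protein that binds actin and filamin C at the membrane and at damaged myofibrils. XIRP1 was counted 25210 times in the abnormal library, at an RPKM of 716, and 943 times in the normal one, at an RPKM of 26.2. The log2 ratio was 4.77 [4.68, 4.87], the second largest among the 7493 transcripts with at least 10 reads in both libraries, and 4.41 relative to the median. By RPKM, XIRP1 stood at rank 102 in the abnormal library and at rank 1463 in the normal one.

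FLNC (filamin C, chromosome 18, 17986050 to 18013267), the muscle filamin that cross-links actin at the Z-disc and the costamere, had 57348 reads against 5809, RPKM levels of 1063 and 105. These were 0.899% of the abnormal and 0.0892% of the normal reads. The log2 ratio was 3.33 [3.30, 3.37], or 2.97 relative to the median. The ratio of XIRP1 to FLNC, on the RPKM scale, was 0.674 in the abnormal and 0.249 in the normal muscle, so the smaller partner came closer to filamin C in level.

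XIRP2, the second Xin repeat protein, differed less than XIRP1. Its larger entry (chromosome 15, 69317178 to 69326123) had 8100 reads against 2304, RPKM levels of 364 and 101, and a log2 ratio of 1.84 [1.78, 1.91]. An overlapping Ensembl entry on the same strand had 276 reads against 37 and a log2 ratio of 2.93 [2.44, 3.42]. Together they gave 8376 against 2341 reads, or a log2 ratio of 1.87.

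The other 10 entries of this group were not called. Talin-2, which couples integrins to actin, had 784 against 556 reads, or a log2 ratio of 0.53 [0.37, 0.68]. FILIP1, a filamin-interacting protein, had 460 against 698 reads, or a log2 ratio of -0.57. These 2 genes were singled out after their values were seen, as was VCL.

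Vinculin, the costamere protein that links talin to actin, was counted by few reads. VCL has an entry of each annotation over the same span of chromosome 14, with 6 against 3 and 11 against 1 reads. The reads of the first covered 1.72% of the transcript in the abnormal and 1.1% in the normal muscle, and those of the second covered 4.17% and 1.18%. Only reads that mapped to 1 place were counted, and the level of VCL is uncertain.

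**Figure D2:**
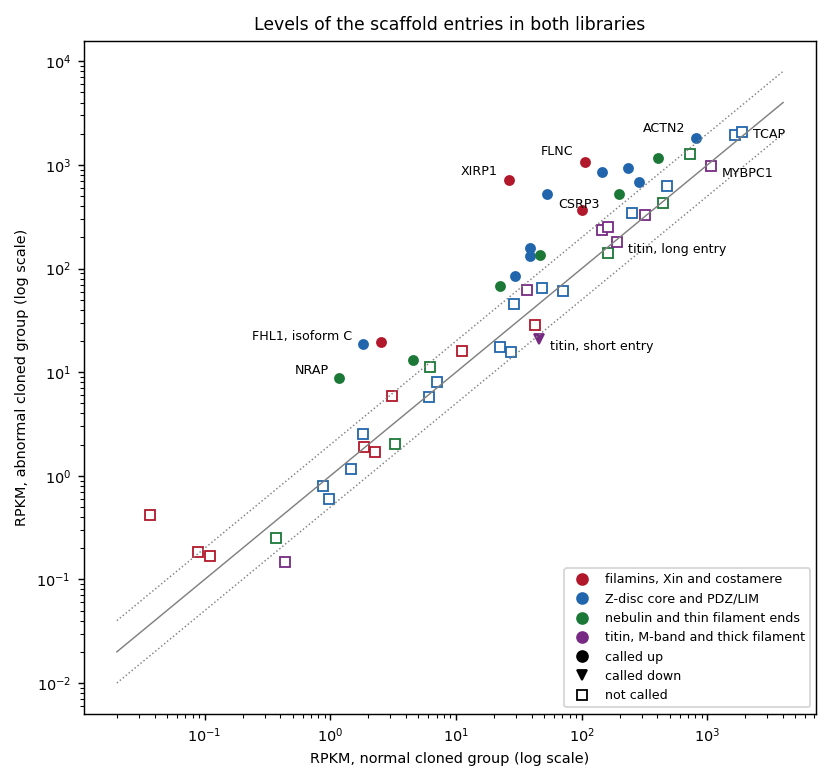
RPKM of the scaffold entries in the normal (x axis) and abnormal (y axis) cloned group, both on log scales, for the entries reported here with a read in the normal library; colours mark role groups and symbols the call. The solid line marks equal levels and the dotted lines a 2-fold difference. XIRP1 and FLNC stand far above the line at RPKM of 716 and 1063 in the abnormal group, while TCAP, MYBPC1 and the long titin entry lie near it.

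Among the Z-disc adaptors, the muscle LIM protein and 2 of the alpha-actinin-binding PDZ/LIM proteins were up-regulated. CSRP3, the muscle LIM protein of the Z-disc, was present as 2 entries on opposite strands of chromosome 2, separated by 48012 bp. The entry at 37534829 to 37555117 had 1995 reads against 206, RPKM levels of 527 and 53.2, and a log2 ratio of 3.31 [3.10, 3.51]. The entry LOC100522301 at 37465463 to 37486816 had 5036 reads against 866, RPKM levels of 863 and 145, and a log2 ratio of 2.57 [2.47, 2.67]. Both entries were called, and their summed reads, 7031 against 1072, gave a log2 ratio of 2.74.

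PDLIM3, the actinin-associated LIM protein, had the highest RPKM of any single entry among the up-regulated adaptors in the abnormal library. It had 10632 reads against 2714 and RPKM levels of 938 and 234. In that library unique reads covered 96.9% of PDLIM3, but 27.95% and 46.7% of the 2 CSRP3 entries, so the levels of these genes cannot be ranked. The log2 ratio of PDLIM3 was 2.0 [1.94, 2.06]. PDLIM5, also called enigma homolog, had 1329 reads against 479, RPKM levels of 84.0 and 29.6, and a log2 ratio of 1.50 [1.35, 1.65]. LDB3 (ZASP or cypher), the third muscle PDZ protein that binds alpha-actinin, was not called: it had 5481 reads against 4059, RPKM levels of 347 and 252, and a log2 ratio of 0.46 [0.41, 0.52], which became -0.02 after correction for transcript length. PDLIM3 stood at 2.70 times the RPKM of LDB3 in the abnormal and 0.931 times in the normal muscle.

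Both synaptopodin-family genes, whose products bind filamin and alpha-actinin, were up-regulated. SYNPO2 (myopodin) had 3943 reads against 991, RPKM levels of 156 and 38.4, and a log2 ratio of 2.02 [1.92, 2.12]. SYNPO2L had 2405 reads against 719, RPKM levels of 132 and 38.8, and a log2 ratio of 1.77 [1.65, 1.89]. FHL1, a LIM-only protein of the sarcomere, had 333 reads against 33 on its isoform C entry and a log2 ratio of 3.37 [2.85, 3.88].

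The cross-linking core of the Z-disc had smaller log2 ratios than the called adaptors. ACTN2, the main cross-linking alpha-actinin of muscle, had 32239 reads against 14577, RPKM levels of 1834 and 812, and a log2 ratio of 1.18 [1.15, 1.20]. MYOT (myotilin), which binds alpha-actinin and filamin C, had 9910 reads against 4198, RPKM levels of 685 and 284, and a log2 ratio of 1.27 [1.22, 1.32]. Both were called on total reads and neither was called relative to the median, where their log2 ratios were 0.82 and 0.91.

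TCAP and MYOZ1 were the scaffold members with the highest RPKM in the normal library, and neither was called. TCAP (telethonin), the cap of the titin amino terminus, had 12925 reads against 12136, RPKM levels of 2062 and 1895, and a log2 ratio of 0.12, which was -0.24 relative to the median. MYOZ1 (myozenin-1), a calcineurin-binding Z-disc protein of fast fibres, had 17658 reads against 15347, RPKM levels of 1940 and 1651, and a log2 ratio of 0.23, which was -0.13 relative to the median. The direction of both thus turned with the scaling. Against ACTN2, TCAP stood at 1.12 times its RPKM in the abnormal and 2.33 times in the normal muscle, and MYOZ1 at 1.06 and 2.03 times, while the ratio of MYOZ1 to TCAP was 0.941 and 0.871. FLNC stood at 0.580 times the RPKM of ACTN2 in the abnormal and 0.130 times in the normal muscle.

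The remaining 12 entries of the Z-disc group were not called. They included the non-muscle actinins ACTN1 and ACTN4 and the adaptors PDLIM1 and PDLIM4. CSRP2, a LIM protein related to CSRP3 and chosen after its value was seen, had 137 against 245 reads, or a log2 ratio of -0.81 [-1.11, -0.51], opposite in sign to both CSRP3 entries. It passed the call as down-regulated when scaled by the median ratio. Myozenin-2, listed with a transcript of 135 bases, had 544 against 423 reads, or a log2 ratio of 0.39, and a neighbouring entry named calsarcin 1, another name of myozenin-2 that the rule did not catch, had 2301 against 1937 reads and 0.28. These entries were likewise chosen after their values were seen.

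On the thin filament, nebulin was split over 3 entries of chromosome 15, and 2 of them were called. The entry ENSSSCG00000016397 had 17929 reads against 6376, RPKM levels of 1155 and 402, and a log2 ratio of 1.52 [1.48, 1.56]. The entry LOC100153001, which overlaps it by 69924 bp on the other strand, had 3399 reads against 1135 and a log2 ratio of 1.61 [1.52, 1.71]. The entry LOC100516160, 109764 bp from the first, had 17180 reads against 9998, RPKM levels of 1281 and 730, and a log2 ratio of 0.81 [0.78, 0.85], which was not called. Whether reads were assigned by strand is not known here, so the 2 overlapping entries may share reads and are not independent measurements. All 3 entries had higher levels in the abnormal library, and the counting intervals of those at 0.81 and 1.52 did not overlap.

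NRAP (nebulin-related anchoring protein), a protein of myofibril assembly and of the fibre end, was listed as 2 entries that overlap by 78922 bp on the same strand of chromosome 14. These had 302 against 41 reads, or a log2 ratio of 2.91 [2.44, 3.38], and 447 against 159 reads, or a log2 ratio of 1.52 [1.26, 1.78]. Both were up-regulated, and their summed reads, 749 against 200, gave a log2 ratio of 1.94. The reads lay on 6.33% and 5.83% of the first transcript and on 5.47% and 5.37% of the second, so the level of NRAP rests on a few unique stretches.

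The proteins of the thin filament's free end differed in their calls. Tropomodulin-1, the capping protein, had 573 reads against 204, RPKM levels of 134 and 46.7, and a log2 ratio of 1.52 [1.29, 1.75]. LMOD2, a leiomodin that lengthens thin filaments, had 7376 reads against 2805, RPKM levels of 528 and 196, and a log2 ratio of 1.43 [1.36, 1.49]. Their relatives LMOD3 and TMOD4 were not called. LMOD3 had 1855 reads against 2177, RPKM levels of 140 and 161, and a log2 ratio of -0.20 [-0.29, -0.11]. TMOD4 had 3840 reads against 4093, RPKM levels of 427 and 446, and a log2 ratio of -0.06 [-0.12, 0.00]. The RPKM of LMOD2 was 3.76 times that of LMOD3 in the abnormal and 1.22 times in the normal muscle. LMOD1, TMOD2 and TMOD3, chosen after their values were seen, had at most 163 reads in a library and were not called.

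No entry of titin, the thick filament or the M-band was up-regulated. The long titin entry (chromosome 15, 79289149 to 79383676) had the most reads of any member, 119816 against 128618, with RPKM levels of 182 and 191, and a log2 ratio of -0.07 [-0.08, -0.06], or -0.43 relative to the median. Its listed transcript of 103484 bases is longer than the genomic span of 94528 bases given for it, which was so for 19 of the 12535 transcripts. Its RPKM is thus uncertain, while the listed length cancels in the ratio between libraries. After correction for transcript length its log2 ratio was -0.80. The short titin entry, on the other strand and 199002 bp away, was the only down-regulated member: it had 304 reads against 678, RPKM levels of 20.8 and 45.5, and a log2 ratio of -1.13 [-1.32, -0.93]. With their reads summed, the log2 ratio of titin was -0.08.

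Among the myosin-binding proteins, MYBPC1, the slow form, had 25038 reads against 28176, RPKM levels of 968 and 1067, and a log2 ratio of -0.14 [-0.16, -0.11]. MYBPC2, the fast form, had 2379 reads against 1555, RPKM levels of 253 and 162, and a log2 ratio of 0.64 [0.55, 0.74]. Neither was called. MYBPC3, the cardiac form, had 2 reads and 0 reads, at or under the floor of 3 reads, which corresponds to 0.470 and 0.460 RPM, the RPKM before division by length.

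At the M-band, MYOM1 (myomesin-1) had 7471 reads against 4716, RPKM levels of 233 and 144, and a log2 ratio of 0.69 [0.64, 0.75], which became -0.04 after correction for transcript length. MYOM2, the myomesin typical of fast fibres, had 9543 reads against 9389, RPKM levels of 329 and 316, and a log2 ratio of 0.05 [0.01, 0.10], which was -0.31 relative to the median. Obscurin, the giant protein that ties the myofibril to the sarcoplasmic reticulum, had 2450 reads against 1468, RPKM levels of 62.1 and 36.4, and a log2 ratio of 0.77 [0.68, 0.86]. None of the 3 passed the fold threshold.

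The order of the members by level was largely shared by the libraries. Across the 50 entries with at least 10 reads in both, Spearman's rho of RPKM was 0.903, which describes entries of the same 2 libraries and not samples. Of the 27 members that are described here only by counts or were singled out after the fact, 18 had at least 10 reads in both libraries, with log2 ratios down to -0.81 and none called, and 9 had fewer.

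Coverage, the share of a transcript's bases with a unique read, moved with the group for long transcripts. Among 504 transcripts of all kinds with at least 100 reads and read numbers within 10% of each other, coverage was higher in the abnormal library for 305 and in the normal library for 177. For the 35 of these over 4000 bases the numbers were 27 and 8, with median coverage of 81.8% and 69.0%. The members were not matched for read number. Among those with at least 10 reads in both libraries, coverage was higher in the abnormal library for 35 of 50. XIRP1 was covered over 99.96% against 88.1% of its bases and FLNC over 99.9% against 95.8%, PDLIM5 over 77.9% against 47.4% and talin-2 over 94.1% against 66.3%. Each of these had more reads in the abnormal library, so read number and library cannot be told apart for them.

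Up-regulated members were found at high and at low coverage. Of the 35 members with at least 60% of the transcript covered in 1 library or both, 12 were up-regulated and none was down-regulated. Of the other 24, 7 were up-regulated and 1 was down-regulated: both CSRP3 entries, FHL1, both XIRP2 entries, both NRAP entries and the short titin entry. Of all transcripts, whatever their coverage, 12.0% and 1.45% were called, and shares at like coverage are not given here. All 35 of the first set had at least 10 reads in both libraries, beside 15 of the 24. FHL1 reads lay on 10.6% and 9.66% of its transcript.

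**Figure D3:**
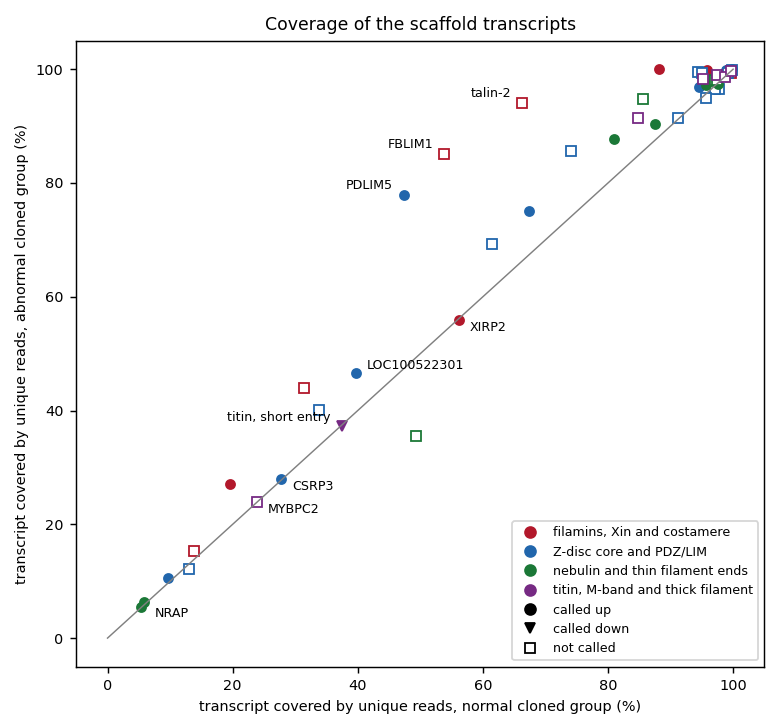
Share of each transcript covered by unique reads in the normal (x axis, %) and abnormal (y axis, %) cloned group, for the scaffold entries reported here with at least 10 reads in both libraries, with equal coverage on the line. PDLIM5 and talin-2 lie far above the line, while the points marked NRAP, CSRP3 and XIRP2 lie close to it. The second CSRP3 entry, LOC100522301, lies above it at 46.7% against 39.8%. Entries were not matched for read number.

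Transcript length moved with the log2 ratio as well. Over 5 near-equal groups of the 7493 transcripts with at least 10 reads in both libraries, from the shortest to the longest, the median log2 ratio was 0.10, 0.25, 0.32, 0.49 and 0.64. The scaffold transcripts were long, with a median of 2287 bases over the 59 members beside 1479 over all 12535 transcripts. After the running median of transcripts of like length was subtracted, 14 members were up-regulated and 3 down-regulated, beside 7.39% and 2.51% of all transcripts. XIRP1 then had a log2 ratio of 4.06 and FLNC 2.63. The calls of ACTN2, LMOD2, MYOT, the nebulin entry LOC100153001 and the Ensembl entry of NRAP were lost, and CSRP2 and FILIP1 joined the short titin entry as down-regulated. The part of length and coverage in the other differences was not tested.

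**Figure D4:**
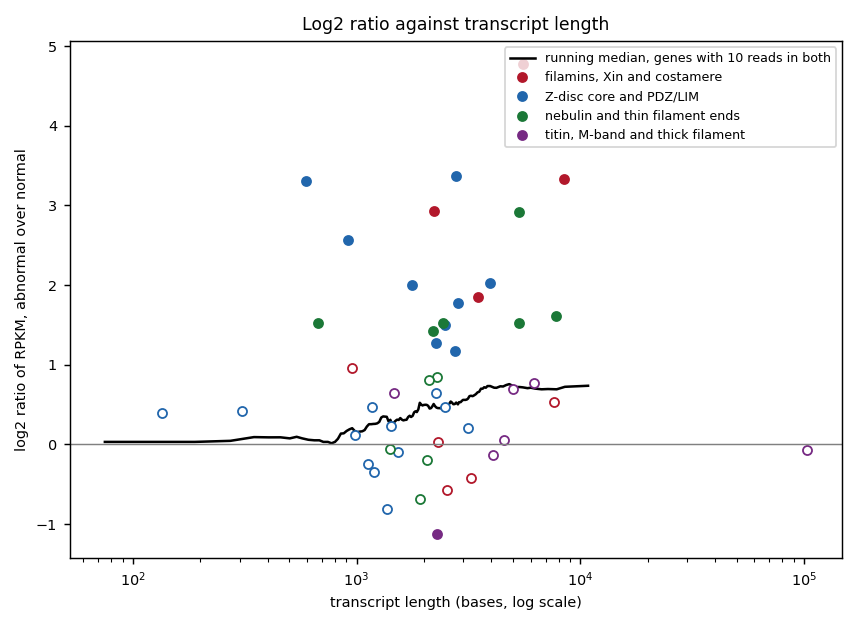
Log2 ratio of RPKM (y axis) against transcript length in bases (x axis, log scale) for the scaffold entries reported here with at least 10 reads in both libraries; filled points were called, and the black line is the running median, by length, of all transcripts past the same minimum of reads. The line climbs with length, XIRP1 and FLNC lie far above it, and the long titin entry lies alone at 103484 bases near 0.

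Genes that work with the scaffold but fall outside the naming rule were counted in 4 lists. Of 16 listed symbols for proteins bound to titin or sensing stretch, 9 genes were found besides NRAP, and 5 were up-regulated and none down-regulated, beside 12.0% and 1.45% of all transcripts. The list's median log2 ratio was 1.26, and 3 genes were up-regulated relative to the median, beside 6.48% of all transcripts. All 9 had at least 10 reads in both libraries. Of all transcripts past that minimum, 18.2% were up-regulated and 2.07% down-regulated, and 9.54% were up-regulated relative to the median. The 5 up-regulated genes included all 3 muscle ankyrin repeat proteins, which bind titin in the I-band: CARP (ANKRD1) had 11242 reads against 215 and a log2 ratio of 5.74, ANKRD2 had 3479 against 530 and 2.75, and ANKRD23 had 2320 against 990 and 1.26. CRYAB, the small heat shock protein that binds titin and desmin, had 27563 against 4730 reads, or a log2 ratio of 2.57, and CMYA5 had 3399 against 1408 and 1.30. CAPN3, TRIM55, NEXN and KY were not called, with log2 ratios from 0.43 to 0.75.

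Damaged filamin is cleared by a chaperone complex built around BAG3. In that list 8 of 12 genes found were up-regulated and none down-regulated, beside 12.0% and 1.45% of all transcripts, with a median log2 ratio of 1.11. All 12 had at least 10 reads in both libraries. Of all transcripts past that minimum, 18.2% were up-regulated and 2.07% down-regulated, and 9.54% were up-regulated relative to the median. Relative to the median 4 were up-regulated, beside 6.48% of all transcripts. BAG3, the co-chaperone itself, had 3816 reads against 524 and a log2 ratio of 2.90, its partner HSPB8 had 4551 against 826 and 2.49, and the autophagy receptor SQSTM1 had 3266 against 949 and 1.81. HSPA8, HSPB1, SMYD1, HSP90AA1 and DNAJB6 were up-regulated with log2 ratios from 1.06 to 1.44, of which SMYD1 and HSP90AA1 are known for myosin folding and assembly. The ubiquitin ligase STUB1 had -0.36, HSPB6 had -0.22 and DNAJB1 had -0.12, none of them called.

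Of the costamere partners, 22 of 31 listed genes were found in 27 entries, of which 4 (14.8%) were up-regulated and none down-regulated, a share near the 12.0% and 1.45% of all transcripts, with a median log2 ratio of 0.47. Relative to the median, 3 of the 27 were up-regulated and 1, LIMS2, was down-regulated, beside 6.48% and 3.97% of all transcripts. Among the 4 were 1 of 5 dystrophin (DMD) entries with 214 against 49 reads and 2.16, UTRN with 67 against 22 and 1.64, and the fibronectin receptor chain ITGA5 with 721 against 337 and 1.13. At the low end another DMD entry had a log2 ratio of -1.04 with 10 against 21 reads and LIMS2 had -0.70, neither of them called. In the list of actin filament and capping genes, 4 of 12 found were up-regulated and none down-regulated, beside the same 12.0% and 1.45%: the actin-binding signalling protein ABRA (2.28), the muscle cofilin CFL2 (1.30), KLHL40 (1.28) and supervillin, SVIL (1.21). ABRA alone of the 12 was up-regulated relative to the median, beside 6.48% of all transcripts, and the list's median log2 ratio was 0.34. ACTA1, the skeletal actin to which the Z-disc is bound, had 431743 against 390261 reads, or a log2 ratio of 0.18, and was not called.

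**Figure D5:**
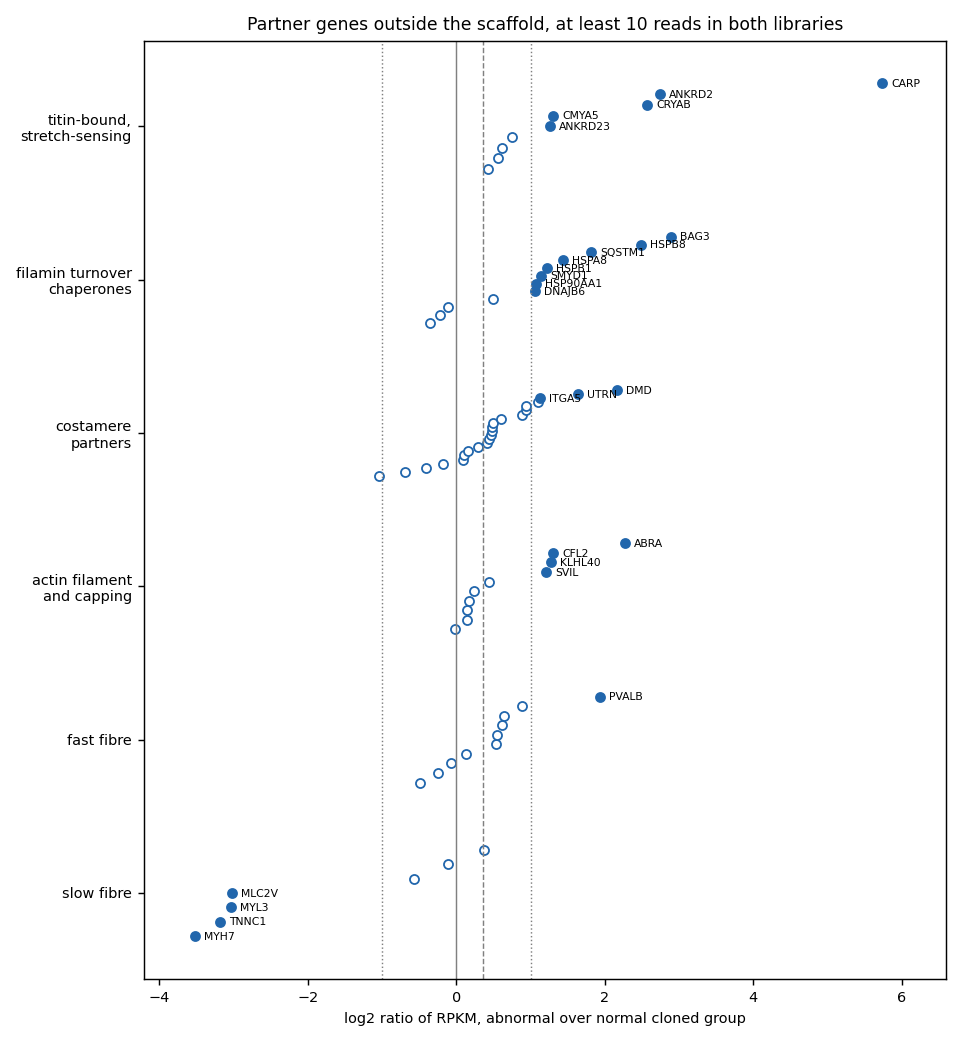
Log2 ratio of RPKM (x axis, abnormal over normal) of genes outside the scaffold rule, by list (y axis), for entries reported here with at least 10 reads in both libraries; filled, named points were called, the dashed line is 0.36, the median of all transcripts past the same minimum of reads, and the dotted lines are log2 ratios of 1 and -1. CARP lies at 5.74, and 4 slow fibre genes lie near -3.

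Fibre-type genes differed between the libraries beside these results. Of 8 slow fibre genes found, 4 were down-regulated (MYH7, TNNC1, MYL3 and MLC2V, with log2 ratios from -3.52 to -3.02) and none up-regulated, beside 1.45% and 12.0% of all transcripts. The MYH7 reads lay on 3.75% and 3.97% of its transcript. Not called were ATP2A2 (-0.56), CASQ2 (0.37), MYH7B (2 against 1 reads) and TPM3. The TPM3 entry found had 10 against 11 reads (-0.11), on 5.92% and 5.57% of its transcript. The paper lists TPM3 as down-regulated and also gives it under an Ensembl entry, which the slow list left out. The low count of the entry found does not speak to the level of that Ensembl entry. Without the Ensembl entry of TPM3, the slow list took 0.224% of the abnormal and 1.61% of the normal reads. Of 10 fast fibre entries, 1 was up-regulated (PVALB, 1.94) and none down-regulated, a share near the 12.0% of all transcripts. In this fast list 7 entries had higher levels in the abnormal library, and 3 had lower ones: MYH1 (-0.49), TNNC2 (-0.25) and MYH2 (-0.08). The fast list took 7.63% and 7.01% of the reads. No marker was called for smooth muscle (4 found besides LMOD1), endothelium (6), fibroblasts (6), macrophages (5), blood (3) or adipocytes (4), whose summed reads were 2307 against 2930, 2550 against 2562, 30567 against 34730, 155 against 204, 2784 against 4089 and 34 against 40. Relative to the median, 2 of the 5 macrophage markers were down-regulated, beside 3.97% of all transcripts: PTPRC (5 against 22 reads) and AIF1 (19 against 44). The adipocyte markers PLIN1 and LEP were at 0 in the normal library. Mitochondrial transcripts took 36.0% of the abnormal and 46.1% of the normal reads. The part of fibre type and of these shares in the scaffold results was not tested.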

How the data were processed

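Reads that passed the authors' quality filter were mapped by them with SOAPaligner/soap2 (at most 2 mismatches). The authors deposited for each Sscrofa9 transcript the count of unique reads without normalization. The deposited RPKM divides that count by transcript length and library total. The authors' coverage column gives the percent of transcript bases with a unique read. Whether strand was kept is not given in the sources used here. Transcripts missing from a table were set to 0 reads, and an RPKM of 0 to 0.001 in ratios.

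The two-sided Audic-Claverie test on reads was run over all 12535 transcripts with Benjamini-Hochberg adjustment. Among the 19 up-regulated members the largest FDR was 1.5e-32, and the short titin entry had 1.84e-30. edgeR's quasi-likelihood test needs replicates and was not used. The members and lists were chosen with earlier results of these data known. Named were all called members, all with at least 1000 reads in either library, XIRP1, FLNC, CSRP3 and SYNPO2, their overlapping entries, and, from each partner list, called genes and the 3 largest and smallest log2 ratios. Totals were 6.38 M and 6.52 M reads.

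Alternatives were scaling by the median ratio, by TMM, to equal GAPDH or without mitochondrial transcripts, a pseudocount of 1 RPKM, edgeR's exact test under an assumed variation of 0.2 or 0.4, Fisher's exact test, a log2 ratio of at least 2, at least 10 reads in both libraries, 1 entry per gene, and a length correction chosen after seeing the data. The test was tried on simulated data. Python 3.11.15 (numpy 2.4.6, pandas 2.3.3, scipy 1.17.1, matplotlib 3.10.9) was used, and R 4.3.3 for edgeR 4.0.16. Methylation data were not analysed here, and some members and partner genes that enter the counts are not reported here by name or drawn.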

Additional observations from a re-analysis of the deposited data

How the results depend on the processing

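The 19 up-regulated members became 17 under the median ratio or TMM, and 18 without mitochondrial transcripts or at equal GAPDH. They stayed 19 under Fisher's exact test, a pseudocount or at least 10 reads in both libraries. With the length correction chosen after seeing the data they were 14, and at a log2 ratio of at least 2 they were 9. When edgeR's exact test assumed a variation of 0.2 they were 10, and 0 when it assumed 0.4. A rough reduction to 1 entry per gene kept 46 entries, 13 of them up-regulated. The up-regulated entries bear more gene names than 13, and only nebulin has an uncalled entry that could replace a called one. The 13 thus understates the genes up-regulated, and other values of that setting are rough as well. The 1 down-regulated member became 2 under each of the 4 scalings (CSRP2 was added), 3 with the length correction, and 0 under both edgeR settings, at a log2 ratio of at least 2 and with 1 entry per gene, which leaves out the short titin entry. Of all transcripts, 12.0% were up- and 1.45% down-regulated in the main setting. These shares were 6.48% and 3.97% under the median ratio and 7.39% and 2.51% with the length correction. With edgeR they were 1.94% and 0.16% at 0.2, and 0.016% and 0.00798% at 0.4. Among transcripts with at least 10 reads in both libraries they were 18.2% and 2.07%. For the other settings they are not given here. The median log2 ratio of 0.64 became 0.28 under the median ratio, 0.25 under TMM, 0.40 without mitochondrial transcripts, 0.43 at equal GAPDH, 0.43 with the pseudocount, 0.21 with the length correction and 0.50 with 1 entry per gene. The scalings subtract the same amount from each log2 ratio, and for the other changes the cause was not tested. Direction turned, under the median ratio, TMM and mitochondrial-free totals, for MYOZ1 (-0.13, -0.16 and -0.014), TCAP (-0.24, -0.27 and -0.13) and MYOM2 (-0.31, -0.34 and -0.19), at equal GAPDH for TCAP (-0.092) and MYOM2 (-0.16), and with the length correction for LDB3 (-0.019), MYOZ1 (-0.056), TCAP (-0.046), MYOM1 (-0.038) and MYOM2 (-0.67). No paired analysis was possible because each group has 1 library, and for the same reason no library could be left out. Entries with fewer than 10 reads in a library have wide counting intervals.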
